A study of Homo sapiens with 6 samples.

Results

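The 8 genes described here make, break down or regulate the polyamines: ODC1, AMD1, SRM, SMS, SAT1, OAZ1, OAZ2 and AZIN1. They were chosen by symbol, with their levels in these data already known, and all 8 of 8 had rows in every one of the 6 deposited tables, among 26195 symbols in all. Levels are in CPM, the unique molecular identifiers (UMIs) counted over the kept cells of a library and scaled to a common library total. Kept cells had at least 500 UMIs and at most 20% of them from mitochondrial transcripts.

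Single cells of PC9, a human line from a lung adenocarcinoma whose EGFR carries an activating mutation, were profiled by Drop-seq, a droplet method that counts the ends of messenger RNAs. Each of 6 conditions had 1 library. The CPI-455 library was given 6.25 µM CPI-455, an inhibitor of KDM5 histone demethylases, for 4 days and 2 µM erlotinib, which inhibits the kinase EGFR, without virus. The KDM5A shRNA library carried a pLVTHM lentivirus with an shRNA against KDM5A. The library labelled KDM5A and KDM5B shRNA carried that virus and a second one against KDM5B, and the KDM5A cDNA library carried a pLenti virus that expresses tagged KDM5A from the CMV promoter. These 3 transduced libraries were moved to 2 µM erlotinib 4, 5 and 6 days after transduction, in the order just given. The labels give 1 day of erlotinib in all, but for the CPI-455 library they also date its start to the day after seeding, at the outset of the 4 days of CPI-455, so the exposure there is uncertain. The scrambled library carried a control virus and no drug, and the untreated library had neither. Transduced cells, scrambled ones included, were changed to 10% serum, whereas the line itself was grown in 5%. Nothing in the labels separates replicate cultures, so each condition is a single sample. Every erlotinib library also had a KDM5 inhibitor or virus and neither drug-free library did, so erlotinib and KDM5 manipulation cannot be told apart in what sets these libraries against each other.

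Polyamines are small positively charged molecules that bind RNA and support translation and cell growth, and proliferating tumour cells usually make more of them. ODC1 turns ornithine into putrescine. AMD1 makes the decarboxylated S-adenosylmethionine from which SRM builds spermidine and SMS builds spermine. SAT1 acetylates spermidine and spermine, which marks them for oxidation or export. Antizymes, encoded by OAZ1 and OAZ2, bind ODC1 protein and send it to the proteasome, and the antizyme inhibitor AZIN1 binds antizyme and so spares ODC1. ODC1 is a textbook target of the transcription factor MYC.

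Antizyme synthesis requires the ribosome to change reading frame at an early stop codon, which polyamines favour, so the messenger level alone does not give the amount of antizyme. The sites are shown because they are the part of both antizyme messengers at which polyamines act. They are written 5′ to 3′ from GENCODE release 29 transcripts with the bypassed TGA stop codon in capitals.

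OAZ1 frameshift site, chromosome 19, plus strand: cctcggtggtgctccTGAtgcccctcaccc
OAZ2 frameshift site, chromosome 15, minus strand: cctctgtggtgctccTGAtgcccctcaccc

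The OAZ1 site was present in 7 of 11 annotated transcripts and the OAZ2 site in 5 of 9. Both carry the same letters from the stop codon onwards.

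Promoter windows of 250 bases before to 50 bases after a transcript start were available from RefSeq (GRCh38.p14) for 7 of the 8 genes, all but AZIN1. The deposited counts were made on GRCh37.p13, so nothing was joined by coordinates. The windows were searched on both strands for the MYC and MAX E-box CACGTG, the antioxidant response element core TGACNNNGC, the polyamine response element TATGACTAA described for SAT1, and the NF-kB consensus. Over 35116 RefSeq windows of 300 bases these motifs occurred in 7.26%, 13.3%, 0.0997% and 5.91%. The E-box was found in 1 of 2 ODC1 windows and in the single SRM window, which are printed because they hold it. AMD1, which like ODC1 and SRM was lower in every erlotinib library, had no E-box in any of its windows. ODC1 also held 1 NF-kB match in the printed window and 1 antioxidant core in its other window. No other window of the 7 genes held any of these letters, which says nothing about the factors. Capitals mark the E-boxes and, in ODC1, the NF-kB match.

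ODC1 promoter, chr2:10447963-10448262, minus strand: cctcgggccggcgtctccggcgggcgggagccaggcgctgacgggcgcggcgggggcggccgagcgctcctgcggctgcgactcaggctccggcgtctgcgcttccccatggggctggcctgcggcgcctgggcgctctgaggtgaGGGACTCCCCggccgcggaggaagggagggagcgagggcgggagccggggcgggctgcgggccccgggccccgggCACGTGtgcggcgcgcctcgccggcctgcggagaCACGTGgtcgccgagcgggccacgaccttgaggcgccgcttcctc
SRM promoter, chr1:11059969-11060268, minus strand: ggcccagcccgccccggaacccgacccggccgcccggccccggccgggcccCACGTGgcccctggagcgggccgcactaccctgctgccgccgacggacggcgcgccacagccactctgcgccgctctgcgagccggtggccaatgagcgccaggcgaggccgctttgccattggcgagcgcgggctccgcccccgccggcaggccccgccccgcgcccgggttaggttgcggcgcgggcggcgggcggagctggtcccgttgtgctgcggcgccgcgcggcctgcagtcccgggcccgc

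The ODC1 E-boxes start at positions 222 and 256 of the window, its NF-kB match at 147, and the SRM E-box at 52, counted from 1 at the 5′ end. Overlap between motifs did not occur within these windows.

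Depth and the state of the libraries bear on all levels below. Kept cells numbered 131 to 374 in the erlotinib libraries, against 263 scrambled and 1166 untreated cells, and held between 590091 and 3956647 UMIs per library. A count of 0 allowed up to 0.758 to 5.08 CPM, at 3 counts. Median UMIs per cell were 2985.5 to 3762.5 in the erlotinib libraries, against 3343 scrambled and 1493.5 untreated. Mitochondrial transcripts took 7.04% to 9.18% of UMIs with erlotinib, against 5.03% scrambled and 3.98% untreated. Processed pseudogenes took 2.77% with CPI-455, 2.38% in the library labelled KDM5A and KDM5B shRNA, 3.25% with KDM5A cDNA but 1.25% with KDM5A shRNA alone, against 1.31% scrambled and 0.956% untreated. Genes of S phase and mitosis took 0.182% to 0.254% of UMIs with erlotinib, against 1.26% scrambled and 1.47% untreated. The targeted KDM5A stood at 120.2 CPM with CPI-455, 56.4 with KDM5A shRNA, 41.3 with both shRNAs and 164 with KDM5A cDNA, against 81.9 CPM scrambled and 121 CPM untreated. KDM5B stood at 102 CPM with CPI-455, 151 with KDM5A shRNA, 138 with both shRNAs and 94.9 with KDM5A cDNA, against 46.4 CPM scrambled and 60.4 CPM untreated. It was thus higher in all 4 erlotinib libraries, the one labelled for its shRNA included. This library shared 1 cell barcode with the CPI-455 library, and no other pair shared any. Epithelial markers (5 of 6 listed had rows) summed to 5148 to 8518 CPM with erlotinib, against 5192 to 6358 CPM without. Leukocyte markers (2 of 4) summed to 23.7 to 42.3 CPM with erlotinib, against 32.9 to 42.5 CPM without, while fibroblast markers summed to at most 8.27 CPM and endothelial markers to at most 12.4 CPM. Nearly all of the leukocyte sum was CD68, at 22.0 to 42.5 CPM over the libraries, and LYZ reached at most 1.69 CPM. All intervals are exact 95% intervals and cover counting error only.

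Among the synthesis enzymes, ODC1, AMD1 and SRM were lower in all 4 erlotinib libraries than in both libraries without the drug, and SMS was not. ODC1 was at 21.7 CPM with CPI-455, 12.5 with KDM5A shRNA, 9.64 in the library labelled KDM5A and KDM5B shRNA, and 33.9 in KDM5A cDNA cells, against 261 CPM scrambled and 111 CPM untreated. These levels rest on 19, 20, 7 and 20 UMIs with erlotinib, against 338 and 438 UMIs without. The groups did not overlap, and within the erlotinib libraries no neighbour in the order KDM5A cDNA, CPI-455, single shRNA, both shRNAs was apart from the next beyond counting error. Libraries further apart in that order did differ. The interval of KDM5A cDNA (20.7 to 52.3 CPM) lay above those of KDM5A shRNA (7.65 to 19.3) and both shRNAs (3.88 to 19.9). The nearest pair across the drug boundary was KDM5A cDNA and untreated, in which KDM5A cDNA was 3.27-fold lower (2.09 to 5.40). Scrambled cells held 2.36 times the ODC1 of untreated cells (2.04 to 2.72).

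From here on, lists of 4 erlotinib values run CPI-455, KDM5A shRNA, both shRNAs, KDM5A cDNA. SRM had 19.5, 28.8, 22.0 and 27.1 CPM with erlotinib, against 166 CPM scrambled and 70.5 CPM untreated. The 4 drug-treated values lay within a narrow band in which no neighbours were apart, and both drug-free values lay above it, again with the scrambled library highest. AMD1 had 51.5, 50.7, 44.1 and 74.6 CPM in these erlotinib libraries, against 191.6 CPM scrambled and 124 CPM untreated. Its groups did not overlap either, and its highest drug-treated library, KDM5A cDNA, was 1.66-fold below untreated cells (1.22 to 2.31). SMS had 217, 434, 393 and 356 CPM in the erlotinib libraries, against 293 CPM scrambled and 278 CPM untreated. The CPI-455 library was the lowest of all 6 for SMS and the 3 transduced erlotinib libraries the highest, so the groups overlapped. The processed copies ODCP and AMDP1 had at most 1 UMI in any library.

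**Figure D1:**
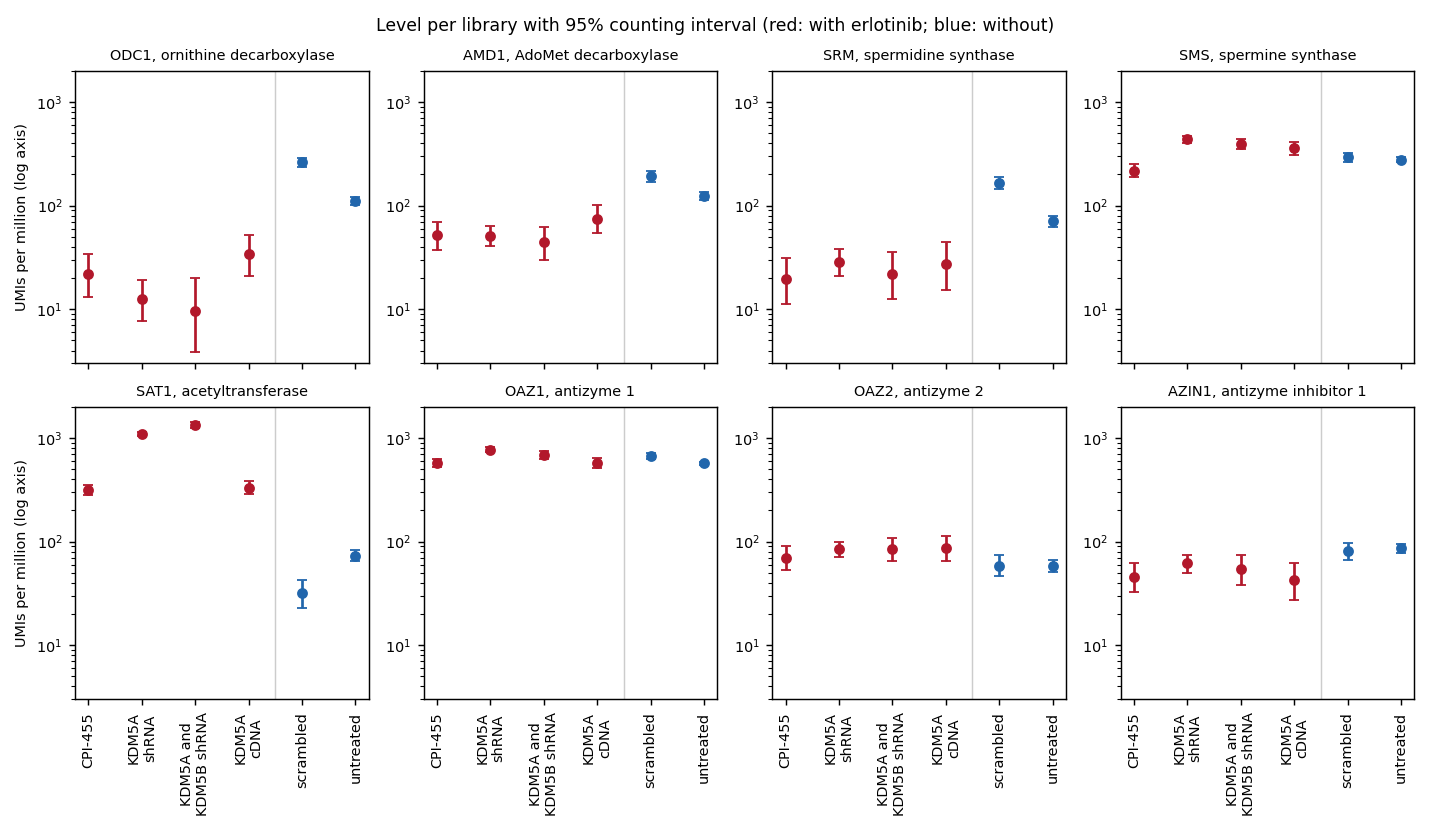
Level of each polyamine gene in each library, in CPM on a log axis, with points for libraries and bars for the exact 95% counting interval; red libraries had erlotinib and blue ones did not. ODC1, AMD1 and SRM lie lower in all red libraries and SAT1 lies higher, between 315 and 1321 CPM against 31.7 and 73.0 CPM.

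SAT1, the breakdown enzyme, was higher in all 4 erlotinib libraries. It stood at 315 CPM with CPI-455, 1094 with KDM5A shRNA, 1321 in the library labelled KDM5A and KDM5B shRNA, and 330.5 in KDM5A cDNA cells, against 31.7 CPM scrambled and 73.0 CPM untreated. The shRNA libraries formed a high pair, the CPI-455 and KDM5A cDNA libraries a middle pair, and the drug-free libraries lay lowest. Within the high pair the library with both shRNAs was 1.21-fold above the other (1.11 to 1.31). Between the pairs KDM5A shRNA was 3.31-fold above KDM5A cDNA (2.85 to 3.86), while KDM5A cDNA and CPI-455 were not apart at 1.05-fold (0.869 to 1.27). Scrambled cells held 0.434 times the SAT1 of untreated cells (0.305 to 0.603), the reverse of ODC1.

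A ratio of these opposed enzymes does not depend on how a library total is scaled. SAT1 UMIs per ODC1 UMI came to 14.5 with CPI-455 (9.09 to 24.4), 87.4 with KDM5A shRNA (56.4 to 143), 137 in the library labelled KDM5A and KDM5B shRNA (66.2 to 342) and 9.75 with KDM5A cDNA (6.14 to 16.3). It came to 0.121 in scrambled cells (0.0855 to 0.168) and 0.660 in untreated cells (0.567 to 0.767). The erlotinib and drug-free values did not overlap, and the scrambled library was the lowest of all 6.

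The regulators of ODC1 protein had smaller differences between libraries. OAZ1 had 569 CPM with CPI-455, 765 with KDM5A shRNA, 690.3 in the library labelled KDM5A and KDM5B shRNA, and 571 in KDM5A cDNA cells, against 667 CPM scrambled and 567 CPM untreated, and the groups overlapped. OAZ2 had 69.8, 83.9, 84.0 and 86.4 CPM with erlotinib, against 58.7 CPM scrambled and 57.9 CPM untreated. Its groups did not overlap. No neighbours in its order were apart beyond counting error, though some libraries further apart in it were, as the pairs below show. AZIN1 had 45.8, 61.4, 53.7 and 42.4 CPM with erlotinib, against 80.3 CPM scrambled and 85.9 CPM untreated. Its groups did not overlap either, and again no neighbouring libraries were apart.

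The question of what the erlotinib libraries shared was put to the whole table with edgeR's quasi-likelihood fit, with 4 libraries against 2. The KDM5 manipulations enter its spread, and the coefficient of biological variation was 0.262. The fitted log2 fold was -3.29 for ODC1 (SE 0.46), -1.48 for AMD1 (SE 0.27), -2.22 for SRM (SE 0.35) and 0.34 for SMS (SE 0.28). It was 3.89 for SAT1 (SE 0.82), 0.11 for OAZ1 (SE 0.22), 0.52 for OAZ2 (SE 0.22) and -0.65 for AZIN1 (SE 0.23). All 8 genes passed the filter on low counts. At an adjusted p under 0.05 over 10445 genes, 1 of the 8 passed higher (SAT1) and 3 passed lower (ODC1, AMD1 and SRM), beside 10.0% of all genes higher and 13.5% lower. Groups did not overlap for 6 of 8 genes, 2 above (SAT1 and OAZ2) and 4 below, beside 18.6% and 26.7% of all genes. Since the genes were chosen with these levels known, the counts describe them and carry no test. The median log2 fold was -0.27 over the 8 genes and 0.01 over all genes tested.

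SAT1 no longer passed when the KDM5A shRNA, the scrambled or the untreated library was left out in turn, with folds of 3.67, 3.46 and 4.58, nor in transduced libraries only, at 4.86, nor with no filter on low counts, at 3.76. AZIN1 passed without the KDM5A shRNA library. Without the scrambled library ODC1 stood at -2.52 and SRM at -1.46, and both still passed. Without the 3 libraries with over 2% of pseudogene UMIs, SAT1 and ODC1 passed and AMD1 and SRM did not. In the KDM5A shRNA library, whose pseudogene share was 1.25%, the log2 ratios against scrambled were -4.38 for ODC1, -1.92 for AMD1, -2.53 for SRM and 5.11 for SAT1. The part of mitochondrial RNA in these differences was not tested, and cycle genes are taken up with the single cells below.

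Pairs of libraries show how the genes stood in each condition, with 1 library on each side and hence no test. ODC1 had a log2 ratio of -2.35 with CPI-455 against untreated cells (-3.09 to -1.69). Against scrambled cells it had -4.38 with KDM5A shRNA (-5.11 to -3.73), -4.76 in the library labelled KDM5A and KDM5B shRNA (-6.08 to -3.70) and -2.95 with KDM5A cDNA (-3.68 to -2.30). SAT1 had 2.11 with CPI-455 against untreated cells (1.86 to 2.35). Against scrambled cells SAT1 had 5.11 with KDM5A shRNA (4.66 to 5.59), 5.38 in the library labelled KDM5A and KDM5B shRNA (4.93 to 5.87) and 3.38 with KDM5A cDNA (2.89 to 3.91). With every cell thinned to 1000 UMIs, several values left these intervals. SAT1 moved to 2.40 with CPI-455, 4.86 with both shRNAs and 2.51 with KDM5A cDNA. ODC1 moved to -4.33 with CPI-455 and -3.78 with KDM5A cDNA, on 1 and 2 thinned UMIs there. With KDM5A shRNA both genes stayed within their intervals, at -4.85 for ODC1 and 4.76 for SAT1. The 3 transduced libraries share the scrambled control, in which ODC1 was the highest and SAT1 the lowest of all 6 libraries.

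SMS and OAZ1 had intervals that excluded 0 in both directions. The log2 ratio of SMS was -0.35 with CPI-455 against untreated cells (-0.58 to -0.13). Against scrambled cells it was 0.57 with KDM5A shRNA (0.39 to 0.75), 0.42 in the library labelled KDM5A and KDM5B shRNA (0.20 to 0.65) and 0.28 with KDM5A cDNA (0.03 to 0.53). AZIN1 lay at -0.91, -0.39, -0.58 and -0.92 in these 4 pairs, with an interval that reached 0 for KDM5A shRNA (-0.80 to 0.02). OAZ2 lay at 0.27, 0.52, 0.52 and 0.56, with an interval that included 0 for CPI-455 (-0.16 to 0.68). Its intervals against scrambled cells excluded 0, with lower bounds of 0.10, 0.01 and 0.02. OAZ1 lay at 0.01, 0.20, 0.05 and -0.22 in the same pairs, with intervals of 0.07 to 0.32 for KDM5A shRNA and -0.41 to -0.04 for KDM5A cDNA. Its direction flips with TMM factors, which turn the CPI-455 value to -0.16 and the value with both shRNAs to -0.10. Those factors shift every ratio by -0.16, 0.10, -0.15 and -0.13 in the 4 pairs. With them the OAZ2 intervals with both shRNAs and with KDM5A cDNA, and the SMS interval with KDM5A cDNA, include 0.

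**Figure D2:**
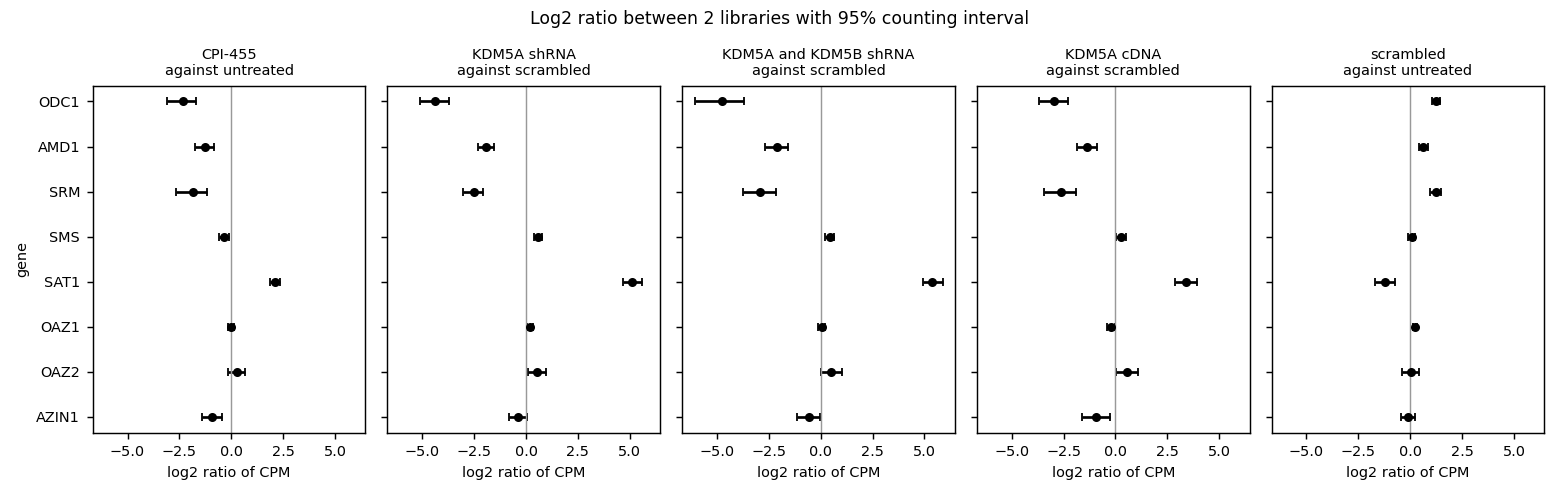
Log2 ratio of CPM between 2 libraries for each polyamine gene, in 5 pairs, with points for the ratio and bars for the exact 95% counting interval. ODC1, AMD1 and SRM lie left of 0 and SAT1 right of 0 in the 4 erlotinib pairs, and these genes lie on the opposite sides in scrambled against untreated.

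Counting genes whose interval excludes 0 gave 1 above and 5 below with CPI-455, beside 28.2% above and 40.7% below among all genes that reached 50 CPM on either side. It gave 4 above and 3 below with KDM5A shRNA (background 31.5% and 41.1%), and 3 above and 4 below in the library labelled KDM5A and KDM5B shRNA (background 30.1% and 38.5%). KDM5A cDNA had 3 above and 5 below (background 27.1% and 36.5%). These shares describe pairs that the choice of genes already used, and nothing is read from them.

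Scrambled against untreated cells, without any drug, also differed in these enzymes. ODC1 had a log2 ratio of 1.24 (1.03 to 1.45), SRM 1.24 (a 2.36-fold difference, 1.96 to 2.82) and AMD1 0.63 (0.41 to 0.86), while SAT1 had -1.21 (-1.71 to -0.73). OAZ1 was at 0.24 (0.12 to 0.35), and SMS, OAZ2 and AZIN1 lay within 0.10 of 0. In this pair 4 genes lay above and 1 below, beside 28.3% and 27.8% of all genes. Control virus, serum and median depth (3343 against 1493.5 UMIs per cell) cannot be told apart here. With every cell thinned to 1000 UMIs the ratio was 1.09 for ODC1 and 1.27 for SRM, but 0.15 for AMD1 and -0.57 for SAT1. The SAT1 value then rested on 10 scrambled and 55 untreated UMIs, and its interval included 0.

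Single cells were compared after thinning each to 1000 UMIs, which left 105 to 332 cells per erlotinib library, against 222 scrambled and 822 untreated cells. All cells are of 1 line, so no cell type without these genes could serve to measure free RNA. SAT1 was found in 28.7% of cells with CPI-455 (21.9 to 36.2), 56.9% with KDM5A shRNA (51.4 to 62.3), 58.9% in the library labelled KDM5A and KDM5B shRNA (49.7 to 67.6) and 20% with KDM5A cDNA (12.8 to 28.9). It was found in 4.50% of scrambled cells (2.18 to 8.13) and 6.20% of untreated cells (4.65 to 8.08). Such shares follow the mean level and are no separate evidence of it. Unthinned shares were 51.0%, 78.1%, 83.6% and 47.3% with erlotinib, against 12.9% scrambled and 17.6% untreated.

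Cells with several SAT1 UMIs were seen mostly in the shRNA libraries. Cells with 5 or more SAT1 UMIs numbered 11 of 332 with KDM5A shRNA and 5 of 124 with both shRNAs, with maxima of 10 and 14 UMIs, and 0 in the other 4 libraries. Variation between cells beyond counting noise, taken as excess variance over the square of the mean, was 0.19, 0.72, 1.13 and 1.06 for SAT1 in the erlotinib libraries, against 1.19 in untreated cells. It was not estimated in scrambled cells, which held too few SAT1 UMIs in total (10). The value was therefore not particular to the shRNA libraries, and those with KDM5A cDNA and in untreated cells rest on 27 and 55 UMIs.

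**Figure D3:**
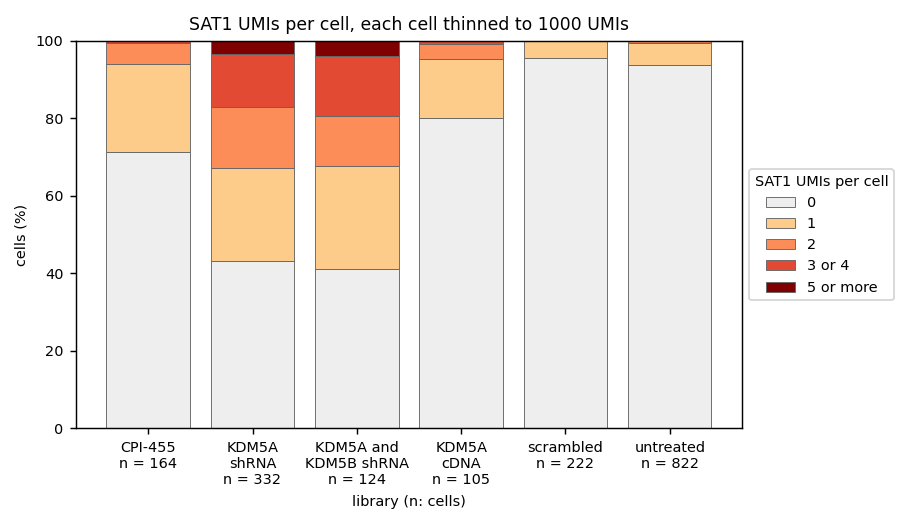
Share of cells (%, vertical axis) by the number of SAT1 UMIs they hold after thinning to 1000 UMIs, stacked for each library with its number of cells. Cells with 3 or more SAT1 UMIs make up the dark upper bands, widest in the libraries with 1 or both shRNAs, and no such cell was seen among scrambled or untreated cells.

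ODC1 was too rare with erlotinib for shares to be ranked. After thinning, 1 of 164 cells held it with CPI-455, as did 3 of 332 with KDM5A shRNA, 0 of 124 in the library labelled KDM5A and KDM5B shRNA, which at 3 counts allows up to 2.42% of thinned cells to hold a UMI (exact upper bound 2.93%), and 1 of 105 with KDM5A cDNA. In contrast 22.1% of scrambled cells (16.8 to 28.1) and 11.2% of untreated cells (9.12 to 13.5) held it. Without thinning, 7.92%, 5.08%, 3.95% and 12.2% of cells in the erlotinib libraries held ODC1, against 50.2% scrambled and 23.2% untreated. SRM was found in 1.83%, 2.71%, 0.806% and 3.81% of thinned cells with erlotinib, against 15.3% scrambled and 7.30% untreated. OAZ1 was found in 40.0% to 48.5% of cells with erlotinib, against 49.5% scrambled and 44.6% untreated.

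Since cycle genes took a smaller share of UMIs in the libraries with less ODC1, cells of each drug-free library were split at their median of cycle UMIs, 13 in scrambled and 14 in untreated cells. In untreated cells ODC1 was at 174 CPM above the median and 78.0 CPM at or below it, a ratio of 2.23 (1.45 to 3.47). SMS had a ratio of 1.32 (1.01 to 1.72) there, and the other 6 genes had intervals that included 1. The share of all genes with an interval that excludes 1 was not computed for this split, so these counts have no background. In scrambled cells ODC1 was at 185 CPM above the median and 315 CPM at or below it, a ratio of 0.586 (0.312 to 1.05), and all 8 intervals included 1. The scrambled library also held more ODC1 than the untreated one with a smaller share of cycle UMIs, 1.26% against 1.47%. Virus, serum and depth differ between them as well, so nothing about the cycle is read from that order. Whether fewer cycling cells take part in the lower ODC1 with erlotinib was not tested.

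**Figure D4:**
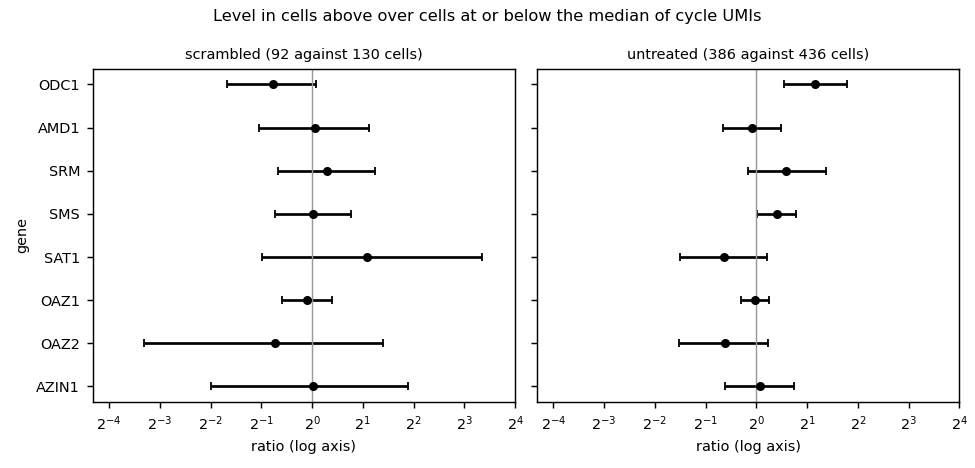
Ratio of each gene's level in cells above the median of cycle UMIs over cells at or below it, on a log axis, in scrambled and untreated cells thinned to 1000 UMIs, with exact 95% counting intervals. ODC1 lies at 2.23 in untreated cells and at 0.586 in scrambled cells, with an interval that includes 1 in the scrambled library.

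A split at the median mitochondrial share left SAT1 with intervals that included 1 in all 6 libraries, from 0.469 in scrambled cells to 2.04 with KDM5A cDNA. SMS was lower in the high-mitochondrial cells of 3 erlotinib libraries, with ratios of 0.440 with CPI-455 (0.195 to 0.927), 0.499 in the library labelled KDM5A and KDM5B shRNA (0.243 to 0.974) and 0.491 with KDM5A cDNA (0.232 to 0.984). In scrambled cells it was higher, at 1.73 (1.03 to 2.94). OAZ1 was lower in such cells at 0.629 with CPI-455 (0.410 to 0.954) and 0.755 with KDM5A shRNA (0.578 to 0.983). OAZ2 was lower at 0.262 with KDM5A shRNA (0.0769 to 0.720), on 5 UMIs in high-mitochondrial cells and 20 in the others. The other intervals that could be computed included 1. Mitochondrial UMIs count toward each cell's total, which by construction lowers other genes somewhat in high-mitochondrial cells. The share of all genes with such intervals was not computed, so these ratios are not read as particular to these genes.

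Around the core enzymes, 40 genes of polyamine supply, transport, breakdown and use and of the MYC and MAX network were listed. Of these 30 were tested, 9 were below the filter on low counts, and SLC22A3 is not analysed here. In edgeR 3 of 30 (10.0%) rose and 4 of 30 (13.3%) fell in the erlotinib libraries, which equals the share of all genes that rose and lies next to the 13.5% that fell. The median log2 fold was -0.06 over the 30 genes.

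In breakdown and back-conversion, SAT2, a relative of SAT1 by sequence, rose and SMOX, the spermine oxidase, did not pass. SAT2 had 62.9, 72.0, 73.0 and 37.3 CPM with erlotinib, against 24.7 CPM scrambled and 24.0 CPM untreated, which fits as 1.39 on the log2 scale (SE 0.30, adjusted p = 0.00898 in edgeR). SMOX had 5.72, 6.26, 6.89 and 18.6 CPM with erlotinib, against 29.4 CPM scrambled and 16.2 CPM untreated, which fits as -1.31 on the log2 scale (SE 0.50, adjusted p = 0.0839 in edgeR). The SMOX groups overlapped through the KDM5A cDNA library. SAT2 did not pass when cells were thinned, when only transduced libraries were used or when the untreated library was left out.

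In transport 1 of 6 tested genes rose. ATP13A3, a polyamine transporter of the P-type ATPase family, had 280.4, 262, 269 and 164 CPM with erlotinib, against 146 CPM scrambled and 149.6 CPM untreated, which fits as 0.76 on the log2 scale (SE 0.24, adjusted p = 0.0429 in edgeR). The KDM5A cDNA library lay close to the drug-free libraries. Leaving out any single library other than KDM5A cDNA ended that call, as did using transduced libraries only or no filter on low counts. SLC3A2, the heavy chain of amino acid transporters, lay at 328 to 511 CPM with erlotinib, against 285 to 424 CPM without, and GPC1, a cell surface proteoglycan, at 117 to 197 CPM against 140 to 152 CPM. Neither passed.

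Of supply genes 2 of 6 were tested and neither passed, and of hypusine genes 3 of 4 were tested and 1 fell. OAT, which links ornithine to glutamate and proline, was at 88.1 to 131 CPM with erlotinib, against 68.8 to 93.0 CPM without, and did not pass at 0.53 (SE 0.24, adjusted p = 0.128 in edgeR). EIF5A, the translation factor that carries hypusine, an amino acid made from spermidine, fell. It had 259.8, 246, 238 and 341 CPM with erlotinib, against 577 CPM scrambled and 543 CPM untreated, which fits as -1.01 on the log2 scale (SE 0.21, adjusted p = 0.00753 in edgeR). The groups were well apart, and the call held with each library left out in turn but not without the 3 libraries with over 2% of pseudogene UMIs. EIF5A has near-identical copies in the genome, so its counts are uncertain. DHPS, which starts the modification, was at 0.40 (SE 0.25, adjusted p = 0.262 in edgeR).

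The methionine cycle and methylthioadenosine salvage supply the aminopropyl donor and recover it, and 2 of 8 tested genes fell. AHCY, which hydrolyses S-adenosylhomocysteine, had 101, 68.3, 101 and 115 CPM with erlotinib, against 172 CPM scrambled and 162 CPM untreated, which fits as -0.77 on the log2 scale (SE 0.23, adjusted p = 0.0350 in edgeR). ENOPH1, a salvage enzyme, had 13.7, 13.8, 15.2 and 22.0 CPM with erlotinib, against 47.1 CPM scrambled and 27.3 CPM untreated, which fits as -1.17 on the log2 scale (SE 0.35, adjusted p = 0.0357 in edgeR). Both sets of groups were separate. The AHCY call ended when any single library other than KDM5A cDNA was left out, and the ENOPH1 call ended with DESeq2 (adjusted p = 0.0601) and without the CPI-455, either shRNA or the scrambled library. The AHCY call also ended with thinned cells and in transduced libraries only. MAT2B and ADI1, the most abundant of the rest, stood at 0.27 (SE 0.24) and -0.12 (SE 0.22) and did not pass.

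In the MYC and MAX network 1 of 9 genes rose and 1 fell. MYC itself had 85.8, 82.1, 67.5 and 50.8 CPM with erlotinib, against 82.7 CPM scrambled and 67.5 CPM untreated, so its groups overlapped. MXI1, a MAX partner that opposes MYC, had 69.8, 82.7, 82.7 and 67.8 CPM with erlotinib, against 26.3 CPM scrambled and 24.0 CPM untreated, which fits as 1.65 on the log2 scale (SE 0.24, adjusted p = 0.00121 in edgeR). This call held with each library left out in turn. MXD3, of the same family, had 8.01, 6.26, 8.27 and 6.78 CPM with erlotinib, against 13.9 CPM scrambled and 24.3 CPM untreated, which fits as -1.38 on the log2 scale (SE 0.39, adjusted p = 0.0287 in edgeR). Its call ended with DESeq2 (adjusted p = 0.0860), in transduced libraries only, and without the CPI-455, either shRNA or the untreated library.

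**Figure D5:**
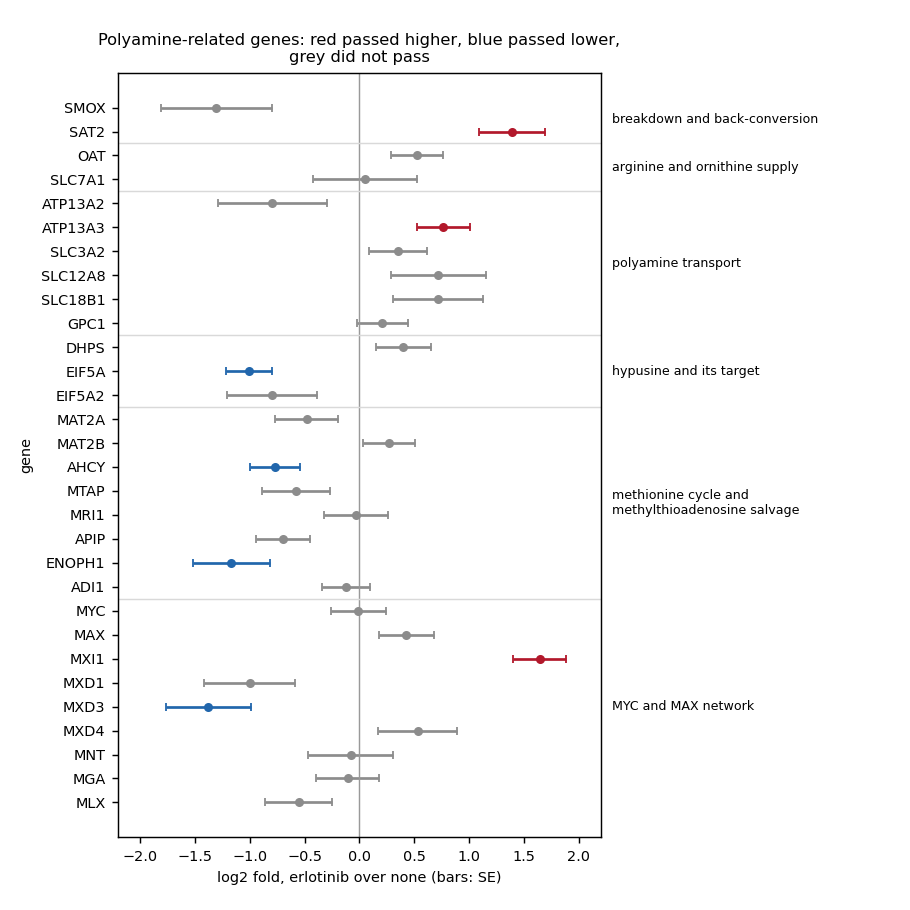
Fitted log2 fold with erlotinib over none for the 30 tested polyamine-related genes, grouped by role, with bars for the standard error; red genes passed higher, blue genes passed lower and grey genes did not pass. SAT2, ATP13A3 and MXI1 lie on the right, and EIF5A, AHCY, ENOPH1 and MXD3 on the left.

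Genes with a similar pattern were found by the root mean square distance between centred log2 levels over the 6 libraries, among genes with a mean of at least 100 CPM. The nearest to ODC1 were CMSS1, TCOF1 and DTYMK, at distances of 0.42, 0.42 and 0.53, against a median of 1.64 over 1902 genes. They did not share the 2.36-fold gap of ODC1 between scrambled and untreated cells. TCOF1 had 300.5 CPM scrambled and 249.5 CPM untreated, whereas CMSS1 had 294 CPM scrambled and 327 CPM untreated, and DTYMK 463 CPM scrambled and 471 CPM untreated. The nearest to SRM were RANBP1, DCTPP1 and HNRNPAB (0.19 to 0.25, median 1.07). Each was higher in scrambled than in untreated cells, RANBP1 at 542 against 310 CPM, DCTPP1 at 332 against 164 and HNRNPAB at 824 against 447. That gap is part of the SRM pattern by which they were chosen. AMD1 was nearest to STRA13, WDR43 and NOP58 (0.10 to 0.12, median 0.78).

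Among the nearest to SAT1 were C8orf4 and IGFBP3, at 0.44 and 0.45 against a median of 1.96 over 1901 genes. IGFBP3 had 1749 CPM with CPI-455, 4515 with KDM5A shRNA, 3438 in the library labelled KDM5A and KDM5B shRNA, and 1434 in KDM5A cDNA cells. It had 239 CPM scrambled and 349 CPM untreated. That the shRNA libraries were highest follows from choosing genes by their likeness to SAT1. SMS was nearest to DYNLT1, ERO1L and PFKP (0.07 to 0.10, median 0.48), and OAZ1 to COX4I1, SF3B1 and PPP4C (0.06 to 0.07, median 0.38). OAZ2 was nearest to ARPC3, MGEA5 and RAP1A (0.06 for each, median 0.43) and AZIN1 to NANS, PSMD7 and RBX1 (0.06 to 0.08, median 0.44).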

How the data were processed

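The authors deposited 1 table of counts per library, with genes by symbol in rows, cell barcodes in columns and unnormalized UMIs as values, as seen from the values themselves. STAR, FastQC and GRCh37.p13 (hg19) are named per the submitters' processing notes. Versions, the counting tool and its strand setting are not given in the sources used here. Kept cells were summed per library and scaled to CPM. edgeR 4.0.16 (TMM, filterByExpr, robust quasi-likelihood, Benjamini-Hochberg over 10445 genes) set 4 erlotinib libraries against 2 without, and standard errors came from the fold and its F statistic. P-values measure only the spread among these libraries, which are not replicates of 1 condition. On simulated data edgeR recovered 95 of 100 genes changed by 2 on the log2 scale and 25 of 100 changed by 1. There were 3 false calls over 10197 genes. The simulation gave every gene the same spread, no KDM5 differences between libraries, and changes only in genes not rare in the smallest library. Its rates therefore do not carry over to genes such as SAT1, whose SD within the groups was 1.04 on the log2 scale. Pairs carry exact 95% Poisson ratio intervals (SciPy 1.17.1). Doublets of a single line cannot be told from single cells and were not removed. Named genes are the 8 genes, listed related genes that passed or reached 100 CPM in any library, and the 3 nearest patterns. Of those nearest to SAT1, 1 gene is not reported here. SMOX, MYC and DHPS were named after their values were seen. The genes and lists were chosen with earlier results of these data known. Alternatives were DESeq2 1.42.0, other normalization, filters, cell choices, thinning and libraries left out.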

Additional observations from a re-analysis of the deposited data

Results flagged for a closer look

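OAZ2 with CPI-455 stood at 69.8 CPM, with 83.9 to 86.4 CPM close together in the other 3 erlotinib libraries. The next library, KDM5A shRNA, was 1.20-fold above it with a counting interval that included 1 (0.882 to 1.66). ATP13A3 with KDM5A cDNA stood at 164 CPM, apart from 262 to 280.4 CPM in the other 3. A library this far from the rest of its 4 is seen by chance in about 1 in 20 groups, and the 4 libraries are different conditions. SMS had a log2 ratio of -0.35 with CPI-455 against untreated cells, opposite in sign to 0.28 to 0.57 in the 3 transduced erlotinib libraries against scrambled cells. That difference was not tested.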

How the results depend on the processing

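No fitted or pairwise value whose call was made changed sign under any alternative run. Sizes were less stable: over the alternative runs 18 ratios of the 8 genes between libraries left their first interval and 181 stayed within it. Genes called numbered 2458 over the whole table, 1026 with cells thinned to 1000 UMIs, 1335 in transduced libraries only, 768 without the 3 libraries with over 2% of pseudogene UMIs (chosen after seeing the data), and 1419 to 2517 with 1 library left out. The 8 genes passing numbered 4, 2 without those 3 libraries, and 3 to 4 with 1 left out. Related genes called higher numbered 3, 1 in transduced libraries only, and 1 to 3 with 1 left out. Related genes called lower numbered 4, 2 with DESeq2, 6 with no filter on low counts, 1 with thinned cells, 2 in transduced libraries only, 0 without the 3 libraries (edgeR, 3 libraries in all), and 1 to 5 with 1 left out. Genes above scrambled were 2 of 8 in place of 4 with KDM5A shRNA after thinning, and 1 in place of 3 with KDM5A cDNA with all barcodes and with TMM factors. With both shRNAs they were 2 in place of 3 after thinning and with TMM factors. Genes below were 2 in place of 5 with KDM5A cDNA after thinning, and 0 in place of 1 for scrambled against untreated cells. The cause was not tested, except that thinning discards most UMIs by construction. In untreated cells, splitting by any cycle UMI gave 0 intervals that excluded 1, thinning to 2000 UMIs gave 1, and the median split, added after seeing the data, gave 2. The matching share of all genes was not computed. Splitting by any cycle UMI set 807 cells against only 15, with wide intervals (0.326 to 74.1 for ODC1), so its 0 decides nothing. The first split gave no value in scrambled cells, where all 222 cells held a cycle UMI. ODC1 had no thinned ratio for KDM5A and KDM5B shRNA, at 0 UMIs. No paired analysis was possible because each condition has 1 library and the replicate numbers pair nothing. Depth limits ODC1, SRM and AMD1 with erlotinib, which rest on 7 to 81 UMIs per library.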
